A study of Mus musculus with 2 samples.

Results

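The 10 genes described here are Nfe2l2, Hmox1, Nqo1, Gclm, Gclc, Txnrd1, Srxn1, Prdx1, Mt1 and Mt2, the core genes of the antioxidant response and the main metallothionein genes. They were taken by gene symbol from the deposited table of 55246 loci, and all 10 had exactly 1 row there. The table comes from RNA sequencing of Treg cells of female mice, regulatory CD4 T cells whose identity rests on the transcription factor Foxp3. Their source was the lamina propria of the colon, the tissue layer beneath the gut epithelium. One group was wild type (WT) at Foxp3, and the other, labelled Exon2KO, carried the Foxp3∆2 allele, which lacks exon 2, and each was 1 library. The labels used here do not give strain, age, the sorting scheme or whether animals were pooled. No gene below therefore has a replicate check, and every interval covers counting error in these 2 libraries only. In such bulk samples, fewer cells of a type and less RNA per cell cannot be told apart.

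Nfe2l2 encodes NRF2, a transcription factor that KEAP1 holds in the cytoplasm and marks for degradation until oxidants or electrophiles modify KEAP1. Freed NRF2 pairs with small MAF proteins on antioxidant response elements and raises genes for glutathione synthesis, the thioredoxin system and detoxification, at sites where BACH1 can compete as a repressor. Metallothioneins are small cysteine-rich proteins that bind zinc and copper, and their genes are raised by zinc through the factor MTF1, which binds metal response elements. In the gut, lymphocytes meet oxidants from phagocytes and epithelium as well as dietary metals and electrophiles.

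To show what these regulators could meet in the genes at hand, promoter windows were read from the RefSeq table (build GRCm38.p6), each running from 250 bases before to 50 after a gene's start. The table held windows for 8 of the 10 genes, not Hmox1 or Gclc. The core antioxidant response element was searched as TGACNNNGC on both strands, and 12.4% of all 32851 windows held it. Windows of 6 of the 8 genes held exactly 1 match, among them 1 of the 3 windows of Txnrd1. The windows of Nqo1 and Mt1 had no match, which says only that these letters were not in these 300 bases. The matched stretches are shown because they are the sequence feature that most of the group shares, with the match in capitals, in the direction of the gene. A match on the opposite strand reads as its reverse complement.
Nfe2l2: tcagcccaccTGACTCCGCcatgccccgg
Gclm: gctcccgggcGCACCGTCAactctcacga
Txnrd1: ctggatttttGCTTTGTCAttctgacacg
Srxn1: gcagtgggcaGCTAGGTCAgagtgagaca
Prdx1: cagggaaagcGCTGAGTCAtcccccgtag
Mt2: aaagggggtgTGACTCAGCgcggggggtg
The matches began 240 bases before the start in Nfe2l2 (chr2:75704885-75704913, minus strand), 134 before it in Gclm (chr3:122245413-122245441, plus strand) and 92 before it in Txnrd1 (chr10:82859104-82859132, plus strand). In Prdx1 (chr4:116685456-116685484) and Mt2 (chr8:94172529-94172557), both on the plus strand, the distances were 133 and 79 bases. In Srxn1 (chr2:152105542-152105570, plus strand) the match began at base 29 after the start. None of these matches was tested for binding here.

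Depth was close in both libraries, at 16281133 assigned reads in WT and 15412425 in Exon2KO, and library sizes were scaled by edgeR's TMM method, so levels are in CPM, the counts relative to the scaled library size. A count of 0 allows up to 0.191 CPM in WT and 0.188 in Exon2KO (3 reads of the scaled total). The targeted gene Foxp3 was counted at 6991 and 20946 reads in WT and Exon2KO. A count over the whole gene cannot check the loss of 1 exon. Of the 6 Treg markers, Foxp3 was at least 2-fold higher in Exon2KO, and Ikzf2 (8476 and 440 reads) and Tnfrsf18 (34363 and 11626) were at least 2-fold lower. T cell markers were abundant in both libraries (a summed 5625 CPM in WT and 4275 in Exon2KO over 7 genes). B and plasma cell markers summed to more, 62747 and 53284 CPM over 9 genes, so markers of cells other than T cells were not absent. The 15 colon epithelial markers summed to 97.5 CPM in WT and 493 in Exon2KO, with 11 of 15 at least 2-fold higher, and Cdx2 and Fabp2 at 0 reads in WT. The 14 myeloid markers summed to 47.1 and 56.2 CPM, with Cd163 at 0 in both libraries, Mrc1, S100a8 and S100a9 also at 0 in WT, and 8 having at least 10 reads.

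Of the 10 genes, Mt1 fell and Nqo1 rose at least 2-fold from WT to Exon2KO, and Mt2 had only 4 reads in all. The other 7 lay within 1.28-fold of WT in these libraries. Ratios are given as log2 of Exon2KO over WT, computed with 2 reads added as a prior, and the interval is a 95% Clopper-Pearson interval of the split of reads. A gene was counted as past the threshold at 2-fold or more, among the 17363 genes with 10 or more reads in total, a minimum that 9 of the 10 genes met. Of all 17363 genes, 9.38% were at least 2-fold higher and 8.14% at least 2-fold lower, so 1 gene of 9 in each direction is near the background. The median log2 ratio of the 9 genes was -0.03 and that of all genes 0.0035. Of these, 4 lay above 0 and 5 below. Scaling by total counts alone raises every log2 ratio by up to 0.106 and puts Nfe2l2, Gclm and Prdx1 above 0, at 0.03, 0.07 and 0.04, so these 3 have no stable sign. The authors' deposited table also gives p-values, which match edgeR's exact test with an assumed relative spread between samples of 0.2. With 1 library per genotype that spread is not measured, so these p-values cannot show that the 7 genes within 1.28-fold were unchanged.

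**Figure D1:**
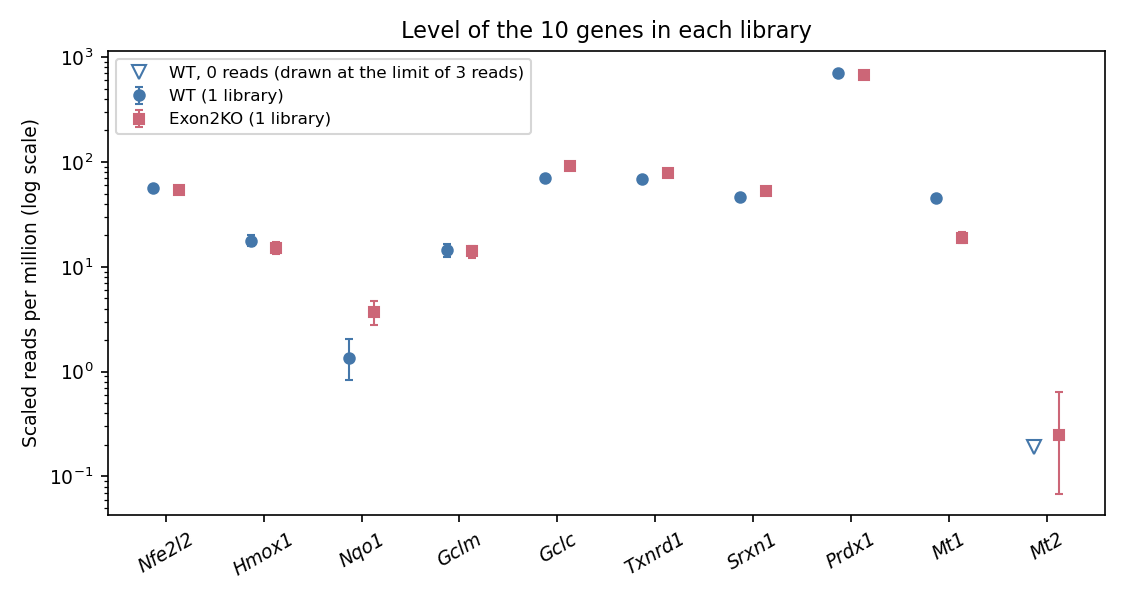
Level in CPM (log axis) of the 10 genes in the WT library (circles) and the Exon2KO library (squares), with exact 95% Poisson intervals; the open triangle marks 0 reads of Mt2 in WT, drawn at the limit of 3 reads. Prdx1 is highest in both libraries. With TMM scaling the intervals of the libraries stand clear of each other for Nqo1, Gclc, Txnrd1, Prdx1 and Mt1. They do not for Nfe2l2, Srxn1, Hmox1 or Gclm. Scaling by total counts changes the sign of the Prdx1 difference.

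The regulator itself, Nfe2l2 (ENSMUSG00000015839, chromosome 2, 75675513 to 75704641, minus strand, GRCm38), gave 892 WT reads and 861 Exon2KO reads. These are 56.8 CPM in WT (95% Poisson interval 53.2 to 60.7) and 53.9 CPM in Exon2KO (50.3 to 57.6). The levels overlap, and the log2 ratio was -0.08 (-0.21 to 0.06). At this depth no difference in Nfe2l2 RNA could be detected. NRF2 is regulated mainly as a protein, which these counts do not measure. Keap1, its inhibitor, had 209 and 221 reads and a log2 ratio of 0.05 (-0.23 to 0.33). Bach1, the competing repressor, had 111 and 76 reads (-0.56, -1.01 to -0.14). Bach2, a related repressor with a known role in T cells, had 173 and 253 reads (0.52, 0.24 to 0.81). Neither BACH gene reached 2-fold, and they lay on opposite sides of WT.

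Glutathione synthesis starts with glutamate-cysteine ligase, which is made of the catalytic subunit GCLC and the modifier subunit GCLM. Gclc (ENSMUSG00000032350, chromosome 9, 77754535 to 77794485) was counted at 1117 and 1452 reads in WT and Exon2KO, or 71.2 CPM (67.1 to 75.5) and 90.8 CPM (86.2 to 95.6). Its level was higher in Exon2KO with intervals that do not overlap, at a log2 ratio of 0.35 (0.24 to 0.47), or 1.28-fold. Among all genes with at least 10 reads, 25.2% had a log2 ratio at least as high, so a difference of this size was common between the libraries. Gclm (ENSMUSG00000028124, chromosome 3, 122245557 to 122270732) had 225 and 224 reads, or 14.3 CPM (12.5 to 16.3) and 14.0 CPM (12.2 to 15.97). These levels overlap, at a log2 ratio of -0.03 (-0.31 to 0.24). Gclm made up 16.8% of the reads of the pair in WT (14.9 to 18.9, 95% Wilson interval) but 13.4% of those in Exon2KO (11.8 to 15.1). The last 2 intervals overlap slightly. Per length, Gclc was 8.29 times as abundant as Gclm in WT and 10.8 times in Exon2KO. In Gclm, 4.71% of exonic bases lie in exons of Gm17494 or Gm6061, and reads there are uncertain.

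The thioredoxin branch is represented by Prdx1, Srxn1 and Txnrd1. Peroxiredoxin 1 reduces hydrogen peroxide, sulfiredoxin repairs peroxiredoxins that peroxide has over-oxidised, and thioredoxin reductase 1 uses NADPH to recharge cytosolic thioredoxin. Prdx1 (ENSMUSG00000028691, chromosome 4, 116685544 to 116700822) was counted 11179 times in WT and 10885 times in Exon2KO, or 712 CPM (699 to 726) and 681 CPM (668 to 694). It alone held 68.9% of the reads of the 10 genes in WT and 67.5% in Exon2KO. Its log2 ratio of -0.07 has the narrowest counting interval of the group (-0.10 to -0.03). The ratio is small beside the interquartile range of all genes, -0.33 to 0.35. With total counts it was 0.04, outside that counting interval, so its sign is not stable.

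Srxn1 (ENSMUSG00000032802, chromosome 2, 152105516 to 152111376) had 729 and 844 reads, or 46.4 CPM (43.1 to 49.9) and 52.8 CPM (49.3 to 56.5). Its log2 ratio was 0.18 (0.04 to 0.33). The reads of Srxn1 as a share of those of Srxn1 and its substrate Prdx1 were 6.12% (5.71 to 6.57, 95% Wilson interval) for WT against 7.20% (6.74 to 7.68) for Exon2KO. These 2 intervals do not overlap, so the share of Srxn1 was higher in the Exon2KO library. Txnrd1 (ENSMUSG00000020250, chromosome 10, 82833951 to 82897712) had 1075 and 1248 reads, or 68.5 CPM (64.5 to 72.7) and 78.1 CPM (73.8 to 82.5). Its log2 ratio of 0.19 (0.07 to 0.31) was close to that of Srxn1, and neither approached 2-fold.

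The classic enzyme targets Hmox1 and Nqo1 did not go together. Hmox1 encodes heme oxygenase 1, which breaks down heme to biliverdin, iron and carbon monoxide, and is also high in macrophages that recycle red blood cells. Hmox1 (ENSMUSG00000005413, chromosome 8, 75093621 to 75100589) gave 279 WT reads and 242 Exon2KO reads, or 17.8 CPM (15.8 to 20.0) and 15.1 CPM (13.3 to 17.2). The intervals overlap and the log2 ratio was -0.23 (-0.49 to 0.02), so no difference could be detected at this depth.

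Nqo1 encodes an NADPH-using quinone reductase that is widely used as a readout of NRF2. Nqo1 (ENSMUSG00000003849, chromosome 8, 107388225 to 107403206, minus strand) gave 21 WT reads and 59 Exon2KO reads, or 1.34 CPM (0.828 to 2.05) and 3.69 CPM (2.81 to 4.76). It rose, with intervals that do not overlap, at a log2 ratio of 1.38 (0.72 to 2.26), or 2.61-fold. The interval reaches below 2-fold, and 5.72% of all genes with at least 10 reads had a ratio as high. The authors' deposited table gives Nqo1 a log2 fold change of 1.46. Its p-value there rests on the same assumed spread, which 1 library per genotype cannot measure. Nqo1 was low in both libraries and is known to be made by colon epithelium, whose 15 markers went from a summed 97.5 to 493 CPM. These markers were not uniform: Car1, Krt8, Krt19 and Lgals4 rose, while Epcam, with 782 and 609 reads, was at -0.39, Muc2 at -0.93 and Tff3 at -0.34. The part of epithelial RNA in the ratio of Nqo1 was not tested.

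Mt1 (ENSMUSG00000031765, chromosome 8, 94179082 to 94180327, plus strand) gave 711 WT reads and 304 Exon2KO reads, or 45.3 CPM (42.03 to 48.8) and 19.0 CPM (16.9 to 21.3). It fell to 42.1% of WT, at a log2 ratio of -1.25 (-1.45 to -1.06). With TMM scaling the whole interval lies beyond 2-fold. Under total counts the log2 ratio was -1.14, and the interval, shifted by 0.106, crosses 2-fold. Of all genes with at least 10 reads, 5.79% were as low or lower, a share close to that of Nqo1 on its side, and of the 10906 genes with at least 100 reads, 2.87% were. At that minimum of reads 4.44% of genes were at least 2-fold lower and 3.79% at least 2-fold higher. The authors' deposited table gives Mt1 a log2 fold change of -1.25 and an adjusted p-value of 0.0671. Those p-values match edgeR's exact test with an assumed relative spread between samples of 0.2, a spread that 1 library per genotype cannot measure. Markers of B and plasma cells were also lower in Exon2KO (9 of 9 below WT, 3 of them at least 2-fold, with a summed 62747 against 53284 CPM). The 7 T cell markers summed to 5625 CPM in WT and 4275 in Exon2KO, with 5 below WT and 2 above. In the mast cell list, Kit had 149 and 53 reads. Mcpt1, Mcpt4, Tpsb2 and Fcer1a were at 0 in both libraries and Cpa3 had 1 and 0 reads, so Kit is not read as a mark of mast cells here. The part of B, plasma or Kit-expressing cells, or of the T and Treg cells whose markers differed, in the fall of Mt1 was not tested.

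Mt2 (ENSMUSG00000031762, chromosome 8, 94172664 to 94173568, plus strand) lies 6418 bases before Mt1 and usually responds with it. It had 0 reads in WT and 4 in Exon2KO, too few to give a ratio. On the log2 scale its 95% counting interval starts at -0.63, so it includes no difference. Of the reads of Mt1 and Mt2 together, Mt2 held 0 of 711 in WT, with an upper 95% Wilson limit of 0.537% (or 0.422% by the limit of 3 reads), and 1.299% in Exon2KO (0.506 to 3.29). The Wilson intervals overlap. These counts are uncertain for a reason visible in the annotation. The antisense gene Gm45774 (chromosome 8, 94170748 to 94173412, minus strand) covers 432 of the 588 exonic bases of Mt2, or 73.5%. Whether strand was used in counting is not given in the sources used here. Without strand the reads of Mt2 and Gm45774 cannot be told apart, and a read that falls on both can be left out of both counts. Gm45774 itself was assigned 7 reads in WT and 0 in Exon2KO. A low count of Mt2 in this table cannot be read as a low level of its RNA. Mt1 shares no exonic base with another gene. The authors' deposited table lists a log2 fold change of 5.03 for Mt2 with an adjusted p-value of 0.628, which rests on these 4 reads.

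**Figure D2:**
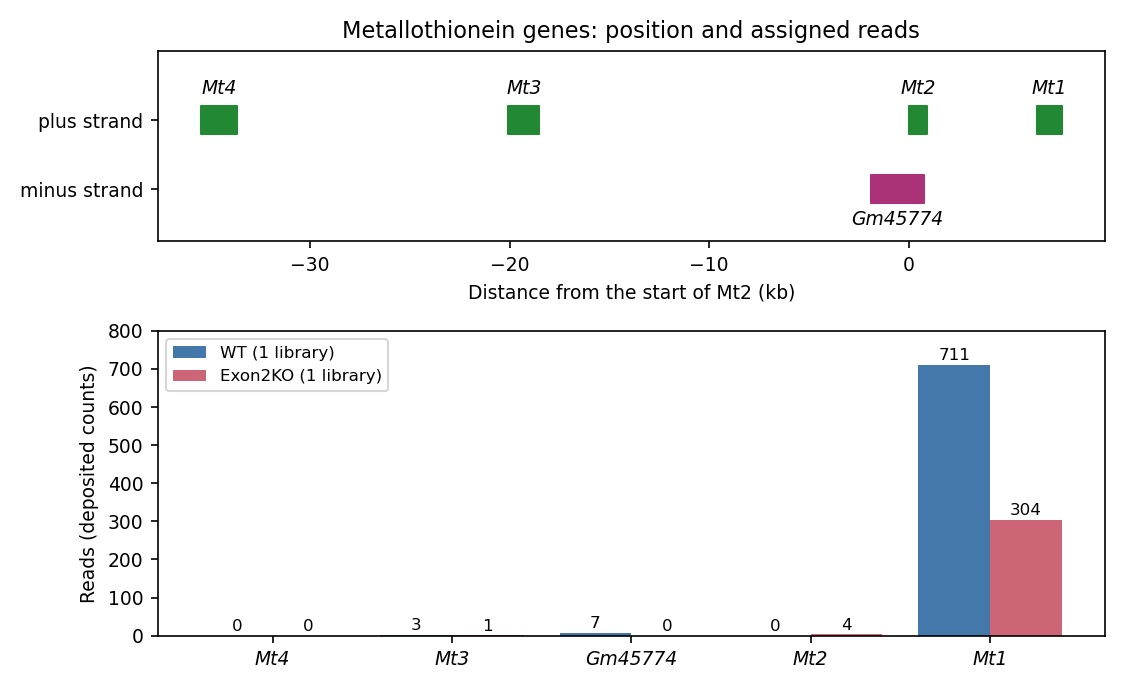
Top, position of 5 genes of the metallothionein cluster as distance in kilobases from the start of Mt2, by strand; bottom, bars of the deposited read counts in the WT and Exon2KO libraries from a baseline of 0. Mt1 holds nearly all reads (711 and 304), and the antisense gene Gm45774 lies across most of Mt2.

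The other genes of the cluster, Mt3 and Mt4, which are typical of brain and of stratified epithelium, had 3 and 1 reads and 0 and 0 reads in WT and Exon2KO. The promoter windows of Mt1 and Mt2 are printed because Mt1 had the lowest ratio of the group and its neighbour carries the same kind of elements. Capitals mark matches to the core metal response element, searched as TGCGCNC and TGCACNC on both strands; a match on the opposite strand reads as its reverse complement.
Mt1: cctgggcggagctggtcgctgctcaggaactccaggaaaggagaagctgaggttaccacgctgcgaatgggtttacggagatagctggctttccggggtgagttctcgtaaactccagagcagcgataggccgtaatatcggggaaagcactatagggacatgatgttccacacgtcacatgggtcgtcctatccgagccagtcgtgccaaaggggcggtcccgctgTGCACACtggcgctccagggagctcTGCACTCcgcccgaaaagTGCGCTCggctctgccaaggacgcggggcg
Mt2: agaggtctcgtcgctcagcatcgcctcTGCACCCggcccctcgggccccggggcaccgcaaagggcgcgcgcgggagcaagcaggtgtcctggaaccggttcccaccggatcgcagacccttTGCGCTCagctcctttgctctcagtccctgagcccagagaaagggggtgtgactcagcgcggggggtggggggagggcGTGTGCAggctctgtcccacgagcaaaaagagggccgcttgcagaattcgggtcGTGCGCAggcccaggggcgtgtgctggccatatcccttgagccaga
The Mt1 window (chr8:94178839-94179138, plus strand) held 3 matches and the Mt2 window (chr8:94172368-94172667, plus strand) held 4. At least 3 matches were found in 1.97% of all 32851 windows and at least 4 in 0.517%, while 25.7% held at least 1. Gclm also held 3 matches and Srxn1 held 1. The Gclm match that begins 138 bases before the start overlaps its antioxidant response element. The searched letters are a description of these windows and show no binding.

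Other genes of zinc handling lay on both sides of WT. Mtf1, the zinc sensor, had 464 and 563 reads, at 0.25 (0.07 to 0.43). Slc30a1, a zinc exporter and known MTF1 target, had 592 and 418 reads, at -0.53 (-0.71 to -0.35), on the same side as Mt1 but short of 2-fold. The zinc importer gene Slc39a4 had 2072 and 1098 reads (-0.94, -1.05 to -0.84), and another importer gene, Slc39a8, rose from 56 to 132 reads (1.18, 0.75 to 1.69). Slc39a14, a zinc and manganese importer gene, had 76 and 119 reads (0.61, 0.19 to 1.05). Of the 18 genes in the list of metallothionein and zinc handling beside the members, 16 had enough reads, and 2 were at least 2-fold higher and 0 lower. Its median log2 ratio was 0.18, with 10 genes above 0 and 6 below.

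**Figure D3:**
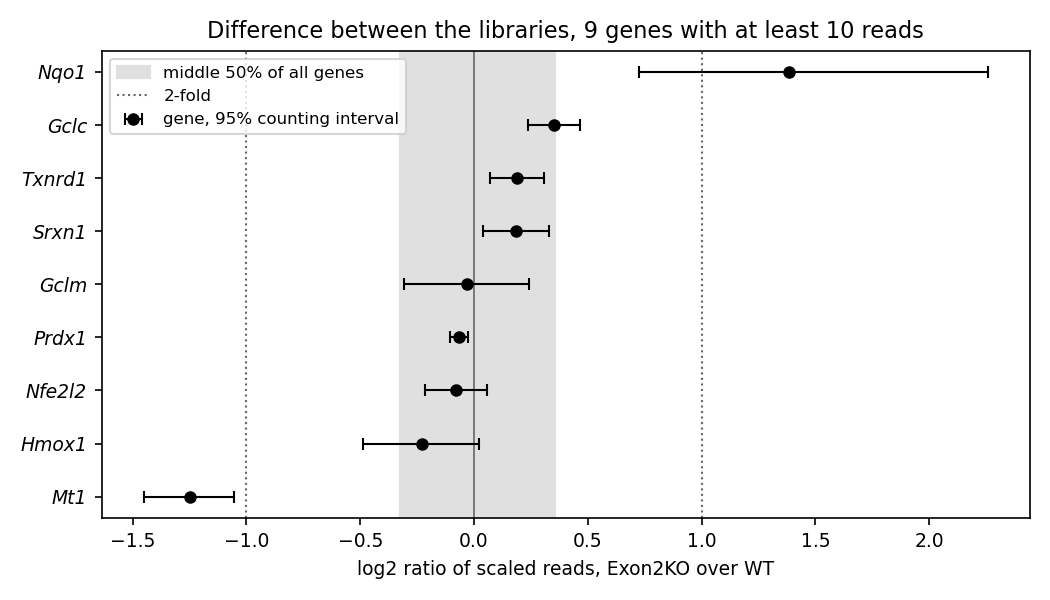
Log2 ratio of scaled reads, Exon2KO over WT, of the 9 genes with at least 10 reads, with 95% Clopper-Pearson intervals; the grey band is the interquartile range of all 17363 genes and dotted lines mark 2-fold. With TMM scaling, Mt1 at -1.25 lies wholly beyond 2-fold and Nqo1 at 1.38 has an interval that crosses it. The other 7 points lie in the band.

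Compared per length, as TPM (read counts divided by exonic length and scaled to a common total), Prdx1 led in both libraries, at 487 TPM in WT and 496 in Exon2KO. It ranked 281 and 268 among all loci. The second place changed. In WT it was Mt1, at 75.6 TPM (95% Poisson interval 70.1 to 81.4), above Gclc at 39.3 (37.0 to 41.7). In Exon2KO it was Gclc, at 53.5 TPM (50.8 to 56.3), then Srxn1 at 41.5 (38.8 to 44.4) and Mt1 at 33.9 (30.2 to 37.9). Mt1 moved from rank 1708 to rank 3199 among all loci. Neighbours that could not be ordered by counting error in WT were Srxn1 (34.2 TPM) and Nfe2l2 (31.1), and Hmox1 (21.1) and Txnrd1 (20.1). In Exon2KO these were Mt1 and Nfe2l2 (31.5), and Nqo1 (5.27) and Gclm (4.94). In WT Nqo1 had stood below Gclm, at 1.79 against 4.74 TPM, with intervals that do not overlap. Mt2 is not placed in this order, since its count is uncertain. Exonic length here joins all annotated isoforms, and isoform use was not measured, so levels per length, the ratio of Gclc to Gclm among them, depend on that choice.

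Beyond the 10 genes, 131 others of the same pathways were listed by role in 9 lists, and 119 had at least 10 reads. Of these, 15 were at least 2-fold higher (12.6%) and 7 lower (5.88%), beside 9.38% and 8.14% of all genes. Their median log2 ratio was -0.07. The 13 regulators and adaptors had a median of -0.12, with 1 past 2-fold higher, Nfe2l3, on 7 and 19 reads. In that list Sqstm1, which encodes p62, an adaptor that sequesters KEAP1 and is itself an NRF2 target, had 29758 and 16618 reads, at -0.87 (-0.89 to -0.84). Osgin1, a stress-induced gene, was at -0.64 (-0.78 to -0.49), and Rbx1, a subunit of the ligase that marks NRF2, at 0.44 (0.37 to 0.50).

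The glutathione list held the widest spread. Of its 34 genes, 30 had at least 10 reads, 9 of them at least 2-fold higher and 2 lower, with a median of 0.29. Slc7a11, the cystine importer that NRF2 raises in many cells, had 0 and 4 reads. Gpx1, the abundant cytosolic peroxidase, had 12328 and 21329 reads, at 0.76 (0.73 to 0.80). Gpx4, which removes lipid peroxides and protects cells from ferroptosis, fell from 17734 to 7963 reads, at -1.18 (-1.22 to -1.14). These peroxidases are both selenoproteins, and they lay on opposite sides of WT. Gpx8, an endoplasmic reticulum member, fell from 20 to 0 reads, with a 95% limit of its log2 ratio nearer to 0 of -2.33. Gpx3, a secreted member, had 139 and 84 reads, at -0.74 (-1.16 to -0.35).

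Among the genes that were higher in this list, Gpx2, known as the gut epithelial peroxidase, rose from 11 to 214 reads, at 4.03 (3.39 to 5.28). Mgst1, a microsomal transferase, rose from 16 to 112 (2.64, 2.02 to 3.64). Mgst3, a related transferase, rose from 101 to 338 (1.70, 1.39 to 2.05), and Gpx7 from 71 to 148 (1.01, 0.62 to 1.46). Gstm2 and Gstm3 each rose from 0 to 29 reads, with a lower 95% limit of the log2 ratio of 2.86, and Gstp2, Gsta3 and Ggt5 rose to at most 38 reads each in Exon2KO. These last genes were chosen after their values were seen, and the Gstm, Gsta and Gstp genes are families of similar sequence in which reads may be split uncertainly. Of the 15 epithelial markers, 12 were higher in Exon2KO, 11 of them at least 2-fold, and Epcam, Muc2 and Tff3 were lower, while the sum went from 97.5 to 493 CPM. Their part in the counts was not tested.

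In the thioredoxin and peroxiredoxin list, all 21 genes had enough reads, 0 were 2-fold higher and 1 was lower, with a median of -0.12. The one that fell at least 2-fold was Glrx, glutaredoxin 1, which removes glutathione from proteins, from 7906 to 3536 reads (-1.19, -1.25 to -1.13). Sesn1, a stress-responsive regulator of growth signalling, was just short of 2-fold, at -0.98 (-1.11 to -0.86). Txn1, the substrate of Txnrd1, had 3099 and 3224 reads, at 0.03 (-0.04 to 0.10). Txnip, which binds and inhibits thioredoxin, was at -0.09 (-0.17 to -0.02). Since total counts shift log2 ratios by up to 0.106, Txnip has no stable sign. The highest were Prdx3, the mitochondrial peroxiredoxin, at 0.14 (0.00 to 0.29) and Msrb1, a methionine sulfoxide reductase, at 0.11 (-0.42 to 0.66).

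Of the 4 genes for superoxide and peroxide removal, 0 passed 2-fold, with Sod1 at 0.03 (-0.05 to 0.10), Sod2 at -0.01 (-0.08 to 0.07) and Cat at -0.41 (-0.59 to -0.24). Of the 8 genes of NADPH supply, many of them known NRF2 targets, 0 passed 2-fold and the median was -0.18. Pgd, of the pentose phosphate pathway, was at -0.06 (-0.22 to 0.10), Pgls at -0.03 (-0.18 to 0.13), Tkt at -0.29 (-0.40 to -0.19) and the NADP-linked isocitrate dehydrogenase gene Idh1 at -0.32 (-0.60 to -0.06).

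The heme and iron list, which surrounds Hmox1, had a median of -0.25, with 1 of 9 genes at least 2-fold higher and 0 at least 2-fold lower. The ferritin genes Fth1 and Ftl1, which store the iron that heme oxygenase releases, were at -0.06 (-0.07 to -0.05) and -0.41 (-0.44 to -0.39). Fth1 had 105635 and 103388 reads. Scaling by total counts shifts log2 ratios by up to 0.106, further than Fth1 lies from 0, so its sign is not stable. Blvrb, a biliverdin reductase gene, was at -0.69 (-1.12 to -0.28) and Fech, the last enzyme of heme synthesis, at -0.02 (-0.22 to 0.18). Slc48a1, a heme transporter, was at 0.57 (0.46 to 0.70). The gene that passed 2-fold was Slc40a1, the iron exporter ferroportin, with 0 and 21 reads and a lower 95% limit of its log2 ratio of 2.35.

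In the list of detoxification and export genes, 10 of 14 had enough reads, 1 was at least 2-fold higher and 1 at least 2-fold lower. The lower was Ephx1, microsomal epoxide hydrolase, which fell from 1636 to 733 reads (-1.18, -1.31 to -1.06). Nqo2, the relative of Nqo1, had 52 and 107 reads, at 0.99 (0.52 to 1.52), just short of 2-fold. The export pump genes Abcc3 and Abcc4 were at 0.51 (-0.03 to 1.09) and -0.73 (-1.18 to -0.32). The higher was Cbr3, a carbonyl reductase gene, on 3 and 13 reads, with a 95% limit of its log2 ratio nearer to 0 of 0.23.

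On the side of superoxide production, 8 of 10 NADPH oxidase genes had enough reads. Of these, 1 was at least 2-fold higher and 3 at least 2-fold lower, with a median of -0.44. Cybb, the catalytic subunit of the phagocyte oxidase, fell from 255 to 112 reads (-1.20, -1.55 to -0.89). Ncf1, which encodes a cytosolic subunit, fell from 43 to 16 reads. The membrane subunit gene Cyba and the GTPase gene Rac2, typical of blood cells, were at -0.42 (-0.46 to -0.38) and -0.32 (-0.35 to -0.28). Phagocytes and B cells express this oxidase. The 14 myeloid markers summed to 47.1 CPM in WT and 56.2 in Exon2KO, and the 9 B and plasma cell markers to 62747 and 53284. Their part in these values was not tested. The gene at least 2-fold higher was Duoxa2, the maturation factor of the epithelial oxidase DUOX2, on 1 and 14 reads.

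**Figure D4:**
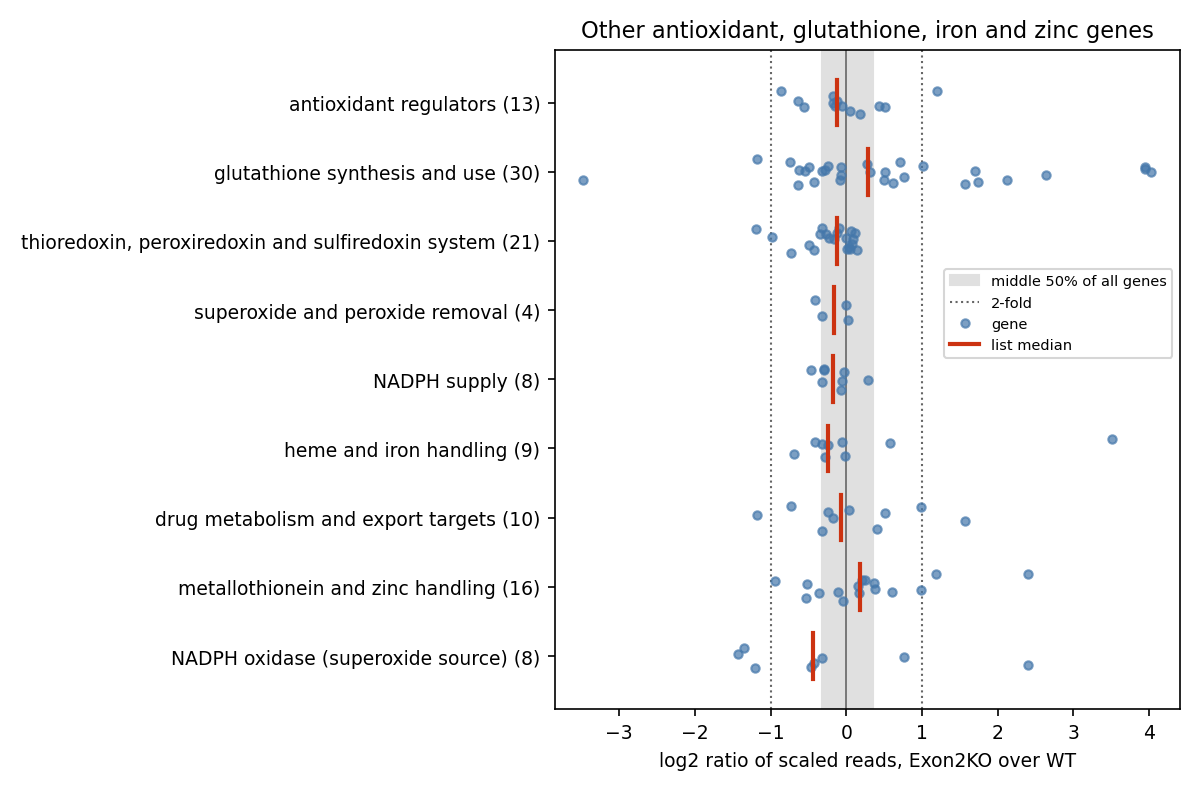
Log2 ratio of scaled reads, Exon2KO over WT, of genes with at least 10 reads in 9 lists (number of genes in parentheses); each point is a gene, red bars are list medians, the grey band is the interquartile range of all genes and dotted lines mark 2-fold. The glutathione list spreads most, with 9 of 30 genes at least 2-fold higher, and the medians of the lists lie between -0.44 and 0.29.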

How the data were processed

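The authors deposited 1 table with raw read counts per gene for 1 WT and 1 Exon2KO library. It also holds, deposited by the authors, FPKM values, a scaled count signal, log2 fold changes and p-values. HISAT2 2.0.5, StringTie 1.3.3b, featureCounts 1.5.0-p3, DESeq2 1.16.1 and the build mm10 are named, with no role or order, per the submitters' processing notes. The deposited p-values lay within 1% of those from the exact test of edgeR when the relative spread between samples (BCV) is assumed to be 0.2, for 100% of 22447 genes. Of the Ensembl genes in GENCODE M21 (GRCm38), 98.3% had identical coordinates there, all 10 members among them.

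Counts were scaled with edgeR 4.0.16 TMM factors (R 4.3.3), and log2 ratios with a prior count of 2, Clopper-Pearson, Poisson and Wilson intervals were computed in Python 3.11.15 with scipy 1.17.1 and statsmodels 0.14.6. The calculation was tested on simulated data. With 1 library per genotype no test between genotypes was run, and a gene was counted at 2-fold or more where both libraries together held 10 reads or more. The members and lists were chosen with earlier results of these data known. Named genes are the 10 members, Foxp3, from each list the 2 highest and 2 lowest with at least 100 reads, and 15 regulators and enzymes fixed by name. Others were named after their values were seen, and 1 gene that the rule names is not reported here. Alternatives varied scaling, prior count, read minimum, fold threshold and the use of FPKM.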

Additional observations from a re-analysis of the deposited data

How the results depend on the processing

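The ratio of Mt1 kept a fall of at least 2-fold under all 9 alternatives in scaling, prior count, read minimum and unit (-1.25 to -1.14). That of Nqo1 kept a rise of at least 2-fold under the 8 that include it (1.28 to 1.48). The read minimum only selects genes, so it cannot change the ratio of a gene. With total counts the interval of Mt1 crosses 2-fold. Total counts, which shift every log2 ratio by up to 0.106 and the median of all genes to 0.1085, changed the sign of Nfe2l2 (0.03), Gclm (0.07) and Prdx1 (0.04), so no direction is given for these 3 genes. The median of all genes was 0.0176 with DESeq2 size factors, -0.0088 with at least 1 read, -0.0176 with at least 100 reads and -0.0172 for protein-coding genes. The number of members at least 2-fold higher was 2 with at least 1 read, since Mt2 entered on 4 reads, and 0 with at least 100 reads, which leaves out Nqo1. With a threshold of 4-fold it was 0 higher and 0 lower. The median of the members, -0.03, changed sign to 0.07 with total counts and 0.08 with at least 1 read, so it has no stable sign. Depth leaves Nqo1 a wide interval and Mt2 no ratio. No paired analysis was possible because each genotype has 1 library.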
